A study of Schizosaccharomyces pombe with 5 samples.

Results

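The immunoprecipitation of Slr1p was compared with an immunoprecipitation by non-immune rabbit IgG across the nuclear protein-coding genes of fission yeast, Schizosaccharomyces pombe. Genes were kept by identifier, leaving out noncoding, small nucleolar, small nuclear and mitochondrially encoded RNAs, which kept 5156 of the 6727 genes counted. The scale of each library was set on these genes alone. The comparison used 3 of the 5 libraries of the series: 2 Slr1p libraries (antibody AB2756), titled as biological replicates 1 and 2, and 1 IgG library with no replicate number. The remaining 2 libraries, total RNA input extracted with hot phenol, added to the estimate of spread and are given beside the results as a further level. All 5 came from wild-type cells of strain yAS99 grown in YES, a rich medium, at 32 °C and cross-linked with formaldehyde. The label for the Slr1p libraries gives the antibody but no tag or deletion of slr1, and no immunoprecipitation from cells lacking Slr1p was analysed here.

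Slr1p is a fission yeast member of the La-related protein family, whose animal member LARP1 binds the cap and the first bases of mRNAs that begin with a terminal oligopyrimidine (TOP) motif. In animals these mRNAs encode most ribosomal proteins and many translation factors, and their translation follows the activity of the TOR kinase. In RNA immunoprecipitation and sequencing (RIP-seq), RNA cross-linked to a protein is recovered with its antibody, and an IgG control shows what the beads and a nonspecific antibody recover on their own.

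Because LARP1 binds the first bases of TOP mRNAs, the first 20 bases of annotated transcripts are shown. They cover the 6 genes highest over IgG, the 6 lowest, and 3 abundant or leading ribosomal protein genes. Sequences and coordinates are from RefSeq assembly ASM294v3, with the whole gene's coordinates given on the strand named. Capitals mark a run of at least 3 pyrimidines that starts at base 1, 2 or 3. The lines of SPBC1711.15c and SPCC191.03c begin with the letters of a start codon, and both were treated as having no annotated 5′ UTR. Where their coding sequences begin was not checked.
ksh1, chrII:789840-790291, minus strand: agaaattacatgctttttaa
SPBC1711.15c, chrII:2161325-2162211, minus strand: atgaaaaaacggtttgattg
rpl4101, chrI:5401849-5402246, minus strand: aTCCataaccacaatgcgtg
SPBC800.12c, chrII:277941-278775, minus strand: gacattccaccatcaccatg
ubi5, chrI:3108199-3108893, minus strand: aagcacaaccaaaatgcaaa
sft2, chrI:4383144-4384239, plus strand: aacaccgacgtgctttggga
mib1, chrIII:837485-840012, plus strand: gagcacataccttgatcata
mug72, chrIII:1662552-1665142, minus strand: accgtctaccaaacactagc
ted1, chrI:4081483-4083505, minus strand: ggcagctaagacgagctcta
SPCC191.03c, chrIII:1710842-1711294, minus strand: atgcgtagtaacaattcctc
bro1, chrI:3596387-3598850, minus strand: gagtgcatagaactataggg
edc1, chrI:2231661-2234160, minus strand: aaccaacatcaatcactaag
rps3002, chrII:2348960-2349451, minus strand: agcaactaccaacaacatgg
cpc2, chrI:2439511-2441027, plus strand: aagacatcccgaccagtcaa
rpl13, chrI:1711185-1712043, plus strand: aCCTTCCacaccaactcacc
Among these 15 ends, that of rpl13 was the sole one with a run of 5 or more pyrimidines starting at base 1, 2 or 3. The annotated end is one position per gene, and the true start sites in these cells were not measured.

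The Slr1p libraries held 62344555 and 64791644 reads counted to nuclear protein-coding genes, against 11934185 in the IgG library and 63332951 and 61822209 in input. An IgG count of 3 corresponds to 0.223 CPM, so a low level in IgG is measured less precisely than the same level elsewhere. CPM is the count scaled to a common total, here by TMM over the nuclear protein-coding genes. Across genes, the Slr1p libraries differed from each other by a median of 0.081 on the log2 scale, while their mean differed from IgG by a median of 0.707. Nothing measured the spread of the IgG control, and the fit took it to be that of the replicated libraries.

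Slr1p and IgG recovered very different mixtures of mRNA. Of 5052 genes tested, 1831 (36.2%) were higher after Slr1p immunoprecipitation and 1765 (34.9%) were lower, by edgeR's quasi-likelihood test with Benjamini-Hochberg adjusted p under 0.05. Of these, 880 (17.4%) were higher by at least 1 on the log2 scale and 958 (19.0%) were lower by at least 1. Both Slr1p libraries stood above IgG for 2523 genes (49.9%) and both below it for 2369 genes (46.9%). The middle 50% of log2 fold changes lay between -0.76 and 0.77, and the 5th and 95th percentiles were -2.23 and 1.64, so the lower tail was the longer one. The balance of directions depended on the scale. With TMM scaling 50.9% of the called genes were higher and the median log2 fold change was 0.06, while with library totals 37.9% were higher and the median was -0.19. List medians below are to be read against that shift of -0.24.

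The order of genes in this comparison followed transcript length. Short mRNAs were higher with Slr1p and long mRNAs were higher with IgG. Spearman's rho between annotated transcript length and log2 fold change was -0.667 across 5003 genes, which share their libraries and are not independent replicates. It was -0.676 with Slr1p replicate 1 and -0.68 with replicate 2, and -0.652 over the 4865 genes outside the ribosomal protein lists. Among 2152 genes that overlap no other counted gene it was -0.699, and among 1248 genes of at least 100 CPM in input it was -0.842. With GC content rho was -0.131.

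**Figure D1:**
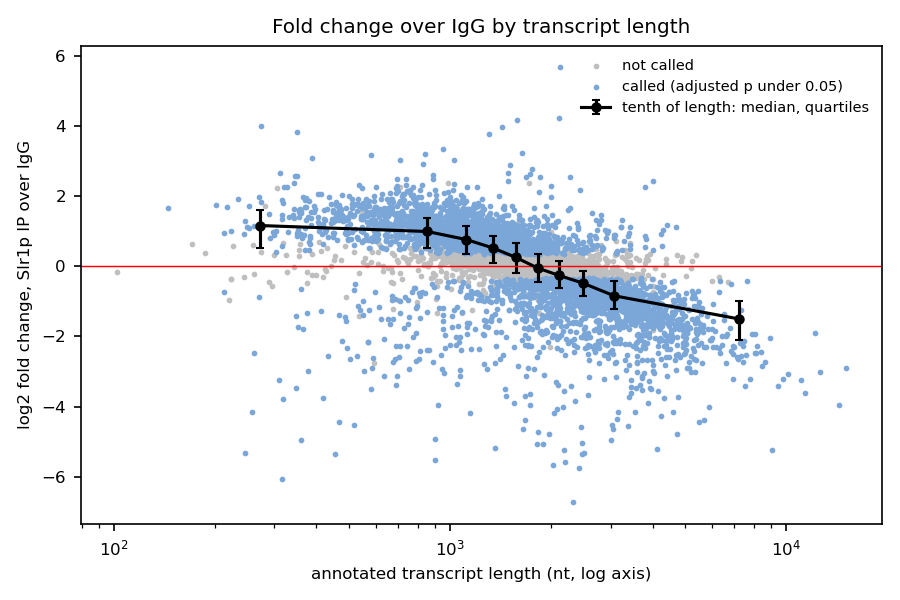
Each point is 1 nuclear protein-coding gene with a transcript length and an IgG count above 0, with annotated transcript length in nucleotides on a log axis and the log2 fold change of Slr1p over IgG on the vertical axis. Blue genes had an adjusted p under 0.05, and the black points give the median and quartiles of each decile of length, which run from 1.16 in the shortest decile to -1.5 in the longest.

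In the shortest decile of genes, with transcripts of 102 to 724 nucleotides (nt), 355 of 501 genes were higher with Slr1p and 62 were lower, with a median log2 fold change of 1.16. In the longest, with transcripts of 3472 to 15002 nt, 11 of 501 were higher and 456 were lower, with a median of -1.5. The medians of the deciles between them fell in order of length, crossing 0 between the decile of 1452 to 1694 nt, at 0.25, and the next, at -0.05.

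The reads shifted accordingly. Genes of the shortest decile took 30.05% and 32.45% of the Slr1p counts (95% Wilson intervals 30.04 to 30.06% and 32.44 to 32.46%) and 14.59% of the IgG counts (14.57 to 14.61%). In input they took 28.88% and 24.84% (28.86 to 28.89% and 24.83 to 24.85%). Genes of the longest decile took 4.701% and 4.319% of the Slr1p counts (4.695 to 4.706% and 4.314 to 4.324%) and 18.04% of the IgG counts (18.02 to 18.07%). In input they took 3.291% and 4.042% (3.286 to 3.295% and 4.037 to 4.046%). These intervals cover counting error only. In both deciles the Slr1p shares were closer to the input shares than to the IgG share.

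Set against input, the length pattern was larger in IgG than in Slr1p. From the shortest to the longest decile, the median difference of Slr1p minus input in log2(CPM + 1) stayed between -0.19 and 0.28, with 0.19 in the longest. The median difference of IgG minus input was -0.58 in the shortest decile, -0.70 in the next and 1.65 in the longest. The 2 differences share the input libraries and are given side by side for that reason, with no test between them. The source of the IgG profile was not tested.

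**Figure D2:**
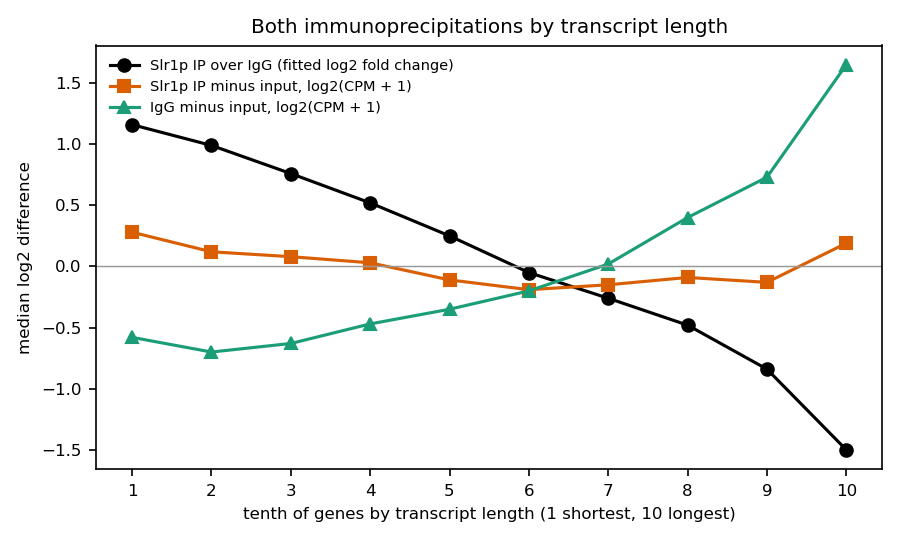
Median log2 difference by decile of transcript length, from the shortest (1) to the longest (10), for Slr1p over IgG (fitted log2 fold change), Slr1p minus input and IgG minus input, the last 2 in log2(CPM + 1). The Slr1p minus input line stays between -0.19 and 0.28, while the IgG minus input line reaches 1.65 in the longest decile.

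Length and GC content trends were also removed from each library by offsets. Then 1535 genes were higher and 1045 lower, 1095 and 857 of them called the same way without the correction. In that fit, 133 genes were higher that had been lower and 7 were lower that had been higher. The correction is fitted over the same genes, so it also takes up any real difference that goes with length. Values with it are given below as "length-corrected".

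Ribosomal protein mRNAs, the class bound by LARP1 in animals, were mostly higher with Slr1p than with IgG. Of the 55 genes of the 40S subunit 53 were higher and 0 lower, and of the 83 tested genes of the 60S subunit 75 were higher and 0 lower. Median log2 fold changes were 1.37 and 1.35, against 0.06 over all genes tested, and 0.63 and 0.60 when length-corrected, against 0.12. As shares these are 96.4% and 90.4% higher, against 36.2% of all genes tested. When length-corrected 34 of the 40S genes were higher and 0 lower, and 55 of the 60S genes were higher and 4 lower. The transcripts of both lists are short, with median lengths of 595 and 634 nt. Length-corrected medians of other short mRNAs, some of them abundant, are given below. The summed level of the 40S genes was 156040 and 184023 CPM with Slr1p, 68943 CPM with IgG and 171104 and 126359 CPM in input. The 60S genes summed to 212109 and 254147 CPM with Slr1p, 97507 CPM with IgG and 216053 and 163313 CPM in input. The Slr1p sums lay near those of input, and the IgG sums were the lowest.

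The mRNA of rpl4101, for the very small 60S protein L41, stood at 2626 and 3496 CPM with Slr1p, 513.1 CPM with IgG and 2427 and 1864 CPM in input. Its log2 fold change over IgG was 2.58 (edgeR, SE 0.32, adjusted p = 1.48e-06). Another counted gene overlaps its whole length, and reads of the 2 may not be separable. The mRNA of rpl1902, for L19, had 3240 and 3706 CPM with Slr1p, 713.7 CPM with IgG and 3034 and 2526 CPM in input, a log2 fold change of 2.28 (standard error 0.31, adjusted p = 4.01e-06). The mRNA of rps3002, the highest of the 40S list, had 1889 and 2438 CPM with Slr1p, 449.1 CPM with IgG and 1378 and 1110 CPM in input, a log2 fold change of 2.27 (standard error 0.28, adjusted p = 1.45e-06). Overlap with other counted genes covers 50.2% of rps3002. In each of these 3 genes both Slr1p libraries were above all others, and IgG was the lowest of the 5.

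The other ends of the lists were less marked. The mRNA of rpl13, with the pyrimidine start printed above, had the highest mean CPM over the Slr1p and IgG libraries in the 60S list. It stood at 6408 and 7354 CPM with Slr1p, 3226 CPM with IgG and 2105 and 2020 CPM in input. Its log2 fold change over IgG was 1.09 (edgeR, SE 0.31, adjusted p = 0.00478), and both immunoprecipitations were above input. Leaving out Slr1p replicate 2 ended the call (adjusted p = 0.0794), as did the length correction (0.40, adjusted p = 0.0591). The mRNA of cpc2, for the ribosome-bound scaffold RACK1, had 5887 and 6786 CPM with Slr1p and 4388 CPM with IgG, a difference of 0.53 that was not called (SE 0.32, adjusted p = 0.144). The mRNA of rps2 was the lowest of the 40S list at 0.51 (SE 0.29, adjusted p = 0.12), with 4039 and 4650 CPM with Slr1p and 3056 CPM with IgG. DESeq2 called both cpc2 and rps2 higher (adjusted p = 0.00364 and 0.005). The acidic stalk protein gene rpp203 was the lowest of the 60S list at -0.14 (SE 0.23, adjusted p = 0.607), and its whole length overlaps another counted gene. It was called lower with library totals (-0.39, adjusted p = 0.0495) and when length-corrected (-1.31, adjusted p = 8.36e-06).

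Other short mRNAs were also mostly higher. In the shortest decile the 93 ribosomal protein genes had a median log2 fold change of 1.49, with 88 higher and 0 lower, and a median input level of 1996.8 CPM. The 408 other genes of that decile had a median of 1.05, with 267 higher and 62 lower. The 79 of them with at least 100 CPM in input had a median of 1.44, with 75 higher and 2 lower, and a median input level of 268.6 CPM, so their abundance was not matched to that of the ribosomal protein genes. In the next decile the 34 ribosomal protein genes had a median of 1.28, with 32 higher and 0 lower. The 466 other genes there had a median of 0.95, with 347 higher and 45 lower, and the 111 of them with at least 100 CPM had 1.28, with 105 higher and 0 lower. The median Slr1p minus input difference in the shortest decile was 0.34 for ribosomal protein genes and 0.26 for all other genes, and in the next decile 0.11 and 0.13. Over the other genes of at least 100 CPM it was -0.01 and -0.41, but that limit was set on the input level that is subtracted. When length-corrected, the medians in the shortest decile were 0.59 for ribosomal protein genes, 0.17 for all other genes and 0.55 for other genes of at least 100 CPM. In the next decile they were 0.65, 0.18 and 0.67. No test was made between these groups of genes.

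Genes with a pyrimidine start, the letters of a TOP motif, had nearly the same median fold change as genes without. Of 4425 genes with an annotated 5′ end, 471 (10.6%) had at least 5 pyrimidines (C or T) in a row from base 1, 2 or 3. Of these 169 were higher and 184 lower, with a median log2 fold change of 0.03, while of the other genes 1481 were higher and 1391 lower, with a median of 0.07. Such a start was present in 10.2% of the genes called higher and 11.7% of those called lower. By length the medians with and without it were 0.90 and 0.91 in the shortest 1475 transcripts, 0.08 and 0.09 in the next 1476, and -0.88 and -0.84 in the longest 1474. In the ribosomal protein lists 4 of 53 and 6 of 81 annotated ends had it. No match says only that these letters are not in the annotated window.

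**Figure D3:**
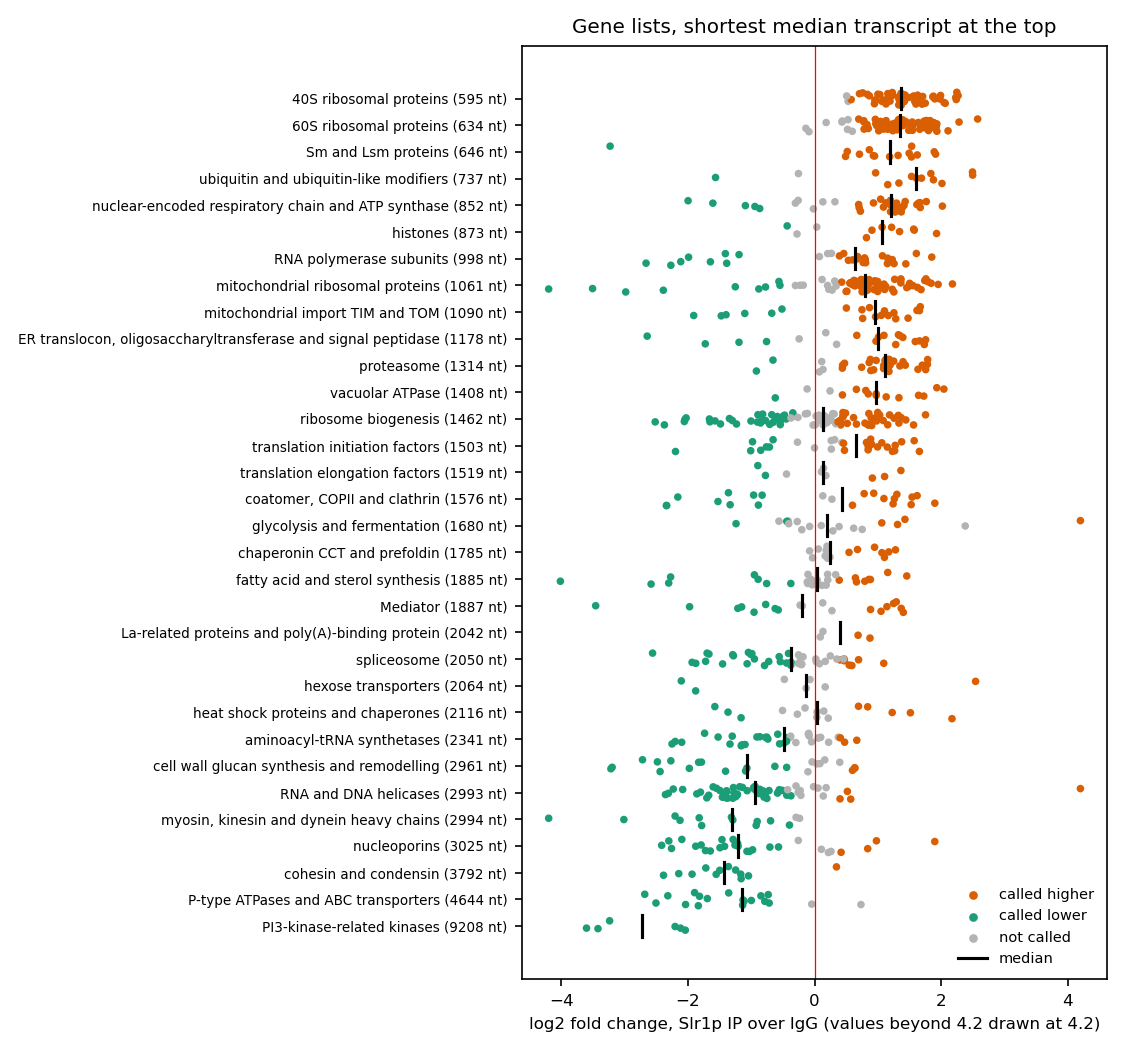
Log2 fold change of Slr1p over IgG for the tested members of 32 gene lists, ordered from the shortest median transcript at the top (length in brackets) to the longest at the bottom. Each point is 1 gene, black bars are medians, and the 40S list at the top has a median of 1.37 while the PI3-kinase-related kinases at the bottom have -2.72.

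Of 30 initiation factor genes 17 were higher and 7 lower, with a median log2 fold change of 0.65, and 19 were higher and 2 lower when length-corrected, with a median of 0.50. The cap-binding protein eIF4E (tif45) had 405.5 and 406.9 CPM with Slr1p, 128.9 CPM with IgG and 234.4 and 254.2 CPM in input, a log2 fold change of 1.66 (edgeR, SE 0.17, adjusted p = 1.46e-07). The factor gene tif52 had 1048 and 1024 CPM with Slr1p, 4749 CPM with IgG and 133.7 and 171.6 CPM in input, a log2 fold change of -2.20 (standard error 0.23, adjusted p = 2.03e-07). It was thus far above input in both immunoprecipitations and highest in IgG. Of 9 elongation factor genes 3 were higher and 2 lower, and when length-corrected 3 were higher and 0 lower. The beta subunit tef5 was the highest, at 1.36 (SE 0.33, adjusted p = 0.00119), and eft202, which encodes the translocase eEF2 and has a near-identical copy in eft201, was the lowest, at -0.90 (SE 0.22, adjusted p = 0.00171). Leaving out Slr1p replicate 1 ended the call of eft202 (adjusted p = 0.0956), as did the length correction (-0.12, adjusted p = 0.582). Of 35 aminoacyl-tRNA synthetase genes, which charge tRNAs and have long transcripts, 3 were higher and 20 lower, with a median of -0.48. When length-corrected 9 were higher and 10 lower, with a median of 0.13.

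Of the 4 La-related and poly(A)-binding protein genes 2 were higher and 0 lower, with a median log2 fold change of 0.41. The mRNA of slr1 itself had 136.7 and 140.8 CPM with Slr1p, 126.6 CPM with IgG and 81.0 and 98.83 CPM in input, and its difference from IgG was not called (log2 fold change 0.13, SE 0.15, edgeR adjusted p = 0.451). When length-corrected it was called higher, at 0.58 (adjusted p = 0.00461), as was pabp, at 0.77 (adjusted p = 0.00224). The poly(A)-binding protein gene pabp was at 0.09 (SE 0.26, adjusted p = 0.757), with 2088 and 2251 CPM with Slr1p and 2037 CPM with IgG. The gene sla1, for the La protein that protects the 3′ ends of new RNA polymerase III transcripts, was higher at 0.69 (SE 0.18, adjusted p = 0.00295). The LARP7 family gene pof8, for a protein of the telomerase RNA complex, was higher at 0.88 (SE 0.20, adjusted p = 0.000895), a call lost with library totals (adjusted p = 0.0566).

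Of 86 ribosome biogenesis genes 34 (39.5%) were higher and 30 (34.9%) lower, near the 36.2% and 34.9% of all genes tested, with a median log2 fold change of 0.14. When length-corrected 15 were higher and 16 lower. The extremes were nop16, at 105.9 and 97.16 CPM with Slr1p and 30.11 CPM with IgG, and utp20, at 96.49 and 91.45 CPM with Slr1p and 538.0 CPM with IgG. Their transcripts of 785 and 7592 nt are also far apart in length. Relative to input, the medians of this list were 0.88 for Slr1p and 0.78 for IgG, in log2(CPM + 1), so the list stood above input in both immunoprecipitations.

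Genes of mitochondrial and proteolytic complexes with short transcripts were mostly higher. Of 76 mitochondrial ribosomal protein genes 58 were higher and 9 lower, with a median log2 fold change of 0.80. When length-corrected 28 were higher and 10 lower, with a median of 0.17. The exceptions were wide: mrpl20 had 0.529 and 0.3427 CPM with Slr1p, against 16.73 CPM with IgG and 4.344 and 5.132 CPM in input. Of 37 nuclear genes of the respiratory chain and ATP synthase 27 were higher and 5 lower, with a median of 1.20, and 23 were higher and 6 lower when length-corrected. The ATP synthase subunit gene atp17 was higher than IgG at 2.02 (edgeR, SE 0.22, adjusted p = 3.79e-07) yet far below input, with 72.31 and 69.38 CPM with Slr1p, 17.47 CPM with IgG and 505.3 and 347.8 CPM in input. The longer sdh1, for a subunit of succinate dehydrogenase, was lower at -2.00 (SE 0.21, adjusted p = 1.84e-07), with 634.9 and 675.2 CPM with Slr1p and 2616 CPM with IgG. Of 21 genes of the mitochondrial import machineries TIM and TOM 15 were higher and 6 lower, with a median of 0.96, and 7 were higher and 7 lower when length-corrected.

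Of 33 proteasome genes 28 were higher and 2 lower, with a median log2 fold change of 1.11. When length-corrected 25 were higher and 1 lower, with a median of 0.63. The core particle gene pre3 had 196.4 and 209.5 CPM with Slr1p and 58.82 CPM with IgG, a log2 fold change of 1.79 (edgeR, SE 0.17, adjusted p = 9.34e-08). The regulatory particle gene rpn2 was lower at -0.92 (SE 0.15, adjusted p = 3.36e-05) and stood at 0.13 when length-corrected. Of 13 genes of ubiquitin and ubiquitin-like modifiers, the tags that mark proteins for the proteasome and other fates, 11 were higher and 1 lower, with a median of 1.61. Both ubiquitin fusions to a 40S protein were among them, ubi5 at 2.50 and ubi3 at 2.01, and the pair share near-identical sequence. The polyubiquitin gene ubi4 was the exception, with 6.94 and 9.014 CPM with Slr1p and 23.57 CPM with IgG, at -1.56 (SE 0.19, adjusted p = 1.32e-06).

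Other lists of short mRNAs were also mostly higher. Of 15 Sm and Lsm genes, whose proteins form rings on small nuclear RNAs, 14 were higher, with a median log2 fold change of 1.19, and 8 were higher and 1 lower when length-corrected. The exception was lsm8, at 0.6412 and 0.4113 CPM with Slr1p, 4.982 CPM with IgG and 9.012 and 9.304 CPM in input. Of 11 histone genes 8 were higher and 1 lower, with a median of 1.07, or 0.47 over those with no near-identical copy. Of 15 vacuolar ATPase genes 12 were higher and 1 lower, with a median of 0.97, and of 19 genes for entry into the endoplasmic reticulum 12 were higher and 4 lower, with a median of 1.01. Both of these membrane lists were nonetheless below input with Slr1p, at medians of -0.81 and -1.05, and further below it with IgG, at -1.51 and -1.70, in log2(CPM + 1). The chaperonin and prefoldin list had 7 of 15 genes higher and 0 lower, with a median of 0.24.

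Of 30 RNA polymerase genes 19 were higher and 8 lower, with a median log2 fold change of 0.64. When length-corrected 10 were higher and 4 lower, with a median of 0.04. Before that correction the largest pair of subunits of each of the 3 nuclear polymerases was lower: nuc1 at -2.66, rpb1 at -2.11, rpc1 at -1.99, rpb2 at -1.64, rpa2 at -1.41 and rpc2 at -1.39. The small subunit rpa12 was the highest at 1.85 (edgeR, SE 0.22, adjusted p = 1.2e-06), with 54.93 and 52.44 CPM with Slr1p, 14.87 CPM with IgG and 176.4 and 118.0 CPM in input. The small subunit gene rpb9, with a transcript of 709 nt, was at -2.27 (SE 0.20, adjusted p = 2.71e-08). Apart from nuc1 and rpa12, the single subunits named here were chosen after their values were seen.

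Genes for large proteins were lower with Slr1p than with IgG. All 6 PI3-kinase-related kinase genes were lower, with a median log2 fold change of -2.72 and a median transcript of 9208 nt. Among them are tor2 at -2.20 and tor1 at -2.12, the kinases of the TOR pathway, and rad3 at -3.42 and tel1 at -2.04, which act in DNA damage signalling. When length-corrected tel1 was called higher, at 0.45 (adjusted p = 0.0157). The mRNA of tra2, the lowest of the list at -3.60, had 56.82 and 57.73 CPM with Slr1p, 695.6 CPM with IgG and 24.55 and 31.45 CPM in input. It was highest in IgG and lowest in input. Over the list the Slr1p sums were 369 and 392 CPM, against 2693 CPM with IgG and 209 and 248 CPM in input, and when length-corrected 1 gene was higher and 3 lower, with a median of -0.14. The kinases rad3, tor1 and tor2 were named after their values were seen.

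Other lists of long mRNAs were also mostly lower. Of 14 myosin, kinesin and dynein genes 0 were higher and 12 lower (median log2 fold change -1.30), and of 12 cohesin and condensin genes 1 was higher and 11 lower (median -1.43). Of 28 nucleoporin genes 4 were higher and 20 lower (median -1.21), and the highest of them, pom34, has a short transcript of 1040 nt and stood at 1.90 (edgeR, SE 0.19, adjusted p = 1.56e-07). Of 57 RNA and DNA helicase genes 4 were higher and 44 lower (median -0.94), and of 19 P-type ATPase and ABC transporter genes 0 were higher and 17 lower (median -1.14). When length-corrected, fewer were lower: 4 of the motor genes (median -0.16), 5 of the cohesin and condensin genes (-0.29), 9 of the nucleoporin genes (-0.01), 14 of the helicase genes (-0.04) and 3 of the transporter genes (0.29). Then 0, 0, 8, 7 and 8 genes of these lists were higher. The plasma membrane proton pump gene pma1 was lower at -0.73 (SE 0.31, adjusted p = 0.0401), with 5364 and 6048 CPM with Slr1p and 9474 CPM with IgG, and higher at 0.84 when length-corrected. Its call was lost without any 1 of the Slr1p or input libraries (adjusted p = 0.0789 to 0.299).

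Of 23 genes of cell wall glucan synthesis and remodelling 3 were higher and 14 lower, with a median log2 fold change of -1.07. When length-corrected 6 were higher and 6 lower, with a median of 0.01. The glucan synthase gene bgs4 had 198.1 and 194.2 CPM with Slr1p, 1824 CPM with IgG and 291.8 and 293.6 CPM in input. It was lower at -3.22 (edgeR, SE 0.17, adjusted p = 4.5e-11), and IgG alone stood above the input level. The spliceosome list had 7 of 44 genes higher and 23 lower, with a median of -0.37, and 6 higher and 10 lower when length-corrected. Its lowest member, spp42 of the U5 particle, was also the most abundant over the Slr1p and IgG libraries. It was at -2.56 (SE 0.16, adjusted p = 2.14e-10), and at -0.26 when length-corrected, which was not called. Mediator had 7 of 19 genes higher and 8 lower, with a median of -0.20.

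The metabolic and stress lists are read against the 36.2% higher and 34.9% lower of all genes tested. Of 18 glycolysis and fermentation genes 4 were higher and 2 lower (median log2 fold change 0.20), and the abundant aldolase gene fba1 had 15730 and 18280 CPM with Slr1p and 10090 CPM with IgG, at 0.75 (edgeR, SE 0.40, adjusted p = 0.1), which was not called here but was by DESeq2 (adjusted p = 4.68e-05). Of 27 genes of fatty acid and sterol synthesis 8 were higher and 8 lower (median 0.04). The acetyl-CoA carboxylase gene cut6, with a transcript of 7140 nt, was at -2.58 (SE 0.22, adjusted p = 1.81e-08), and at -0.27 when length-corrected, which was not called. Of 15 heat shock protein and chaperone genes 5 were higher and 3 lower (median 0.04), from hsp20 at 2.17 to the endoplasmic reticulum chaperone gene bip1 at -1.57. Of 22 genes of vesicle coats 11 were higher and 9 lower (median 0.44), and the clathrin heavy chain gene chc1 was at -2.34 (SE 0.17, adjusted p = 1.93e-09). The 7 hexose transporter genes had 1 higher and 2 lower (median -0.13). When length-corrected more of these genes were higher than lower: 8 and 2 for glycolysis, 12 and 1 for fatty acid and sterol synthesis, 7 and 1 for heat shock, 10 and 4 for vesicle coats, and 3 and 2 for hexose transporters. All genes tested also leaned that way in that fit, with 1535 higher and 1045 lower of 5052. With library totals in place of TMM, the median turned to 0 or below it in 6 of the 32 lists. These were the chaperonin (0.00), elongation factor (-0.11), ribosome biogenesis (-0.10), glycolysis (-0.05), heat shock (-0.21) and fatty acid and sterol (-0.20) lists.

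The 12 genes with the highest fold changes, among those averaging at least 10 CPM, were led by ksh1, whose budding yeast counterpart acts in the early secretory pathway. It had 960 and 893 counts with Slr1p and 13 with IgG, which are 15.39 and 15.3 CPM against 0.9667 CPM, a log2 fold change of 3.99 (edgeR, SE 0.37, adjusted p = 5.12e-08). In input it was higher still, at 51.87 and 35.47 CPM. The Golgi transport gene sft2, at 2.48, was also higher in input (66.57 and 49.09 CPM) than with Slr1p (29.97 and 29.9 CPM) or IgG (5.354 CPM). For nop10, a protein of the particles that guide pseudouridylation, Slr1p gave 317.6 and 366.5 CPM, IgG 66.55 CPM and input 309.3 and 264.0 CPM. The metallothionein gene zym1 had 17.42 and 19.48 CPM with Slr1p, 3.718 CPM with IgG and 12.49 and 11.41 CPM in input. For arc5, of the actin-branching Arp2/3 complex, the values were 158.7 and 172.2 CPM with Slr1p, 34.65 CPM with IgG and 199.0 and 163.5 CPM in input.

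A further pair stood apart from both IgG and input. The PWWP domain gene pdp2 had 86.04 and 79.2 CPM with Slr1p, 17.03 CPM with IgG and 14.5 and 21.52 CPM in input, a log2 fold change over IgG of 2.28 (edgeR, SE 0.22, adjusted p = 8.26e-08). Its annotated length of 1996 nt was the longest among the 12, and all of it overlaps other counted genes. The uncharacterized SPBC1711.15c had 12.13 and 16.09 CPM with Slr1p, 2.305 CPM with IgG and 4.599 and 4.766 CPM in input. Its log2 fold change was 2.61 (standard error 0.30, adjusted p = 7.59e-07), with 80.5% of its length overlapped.

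**Figure D4:**
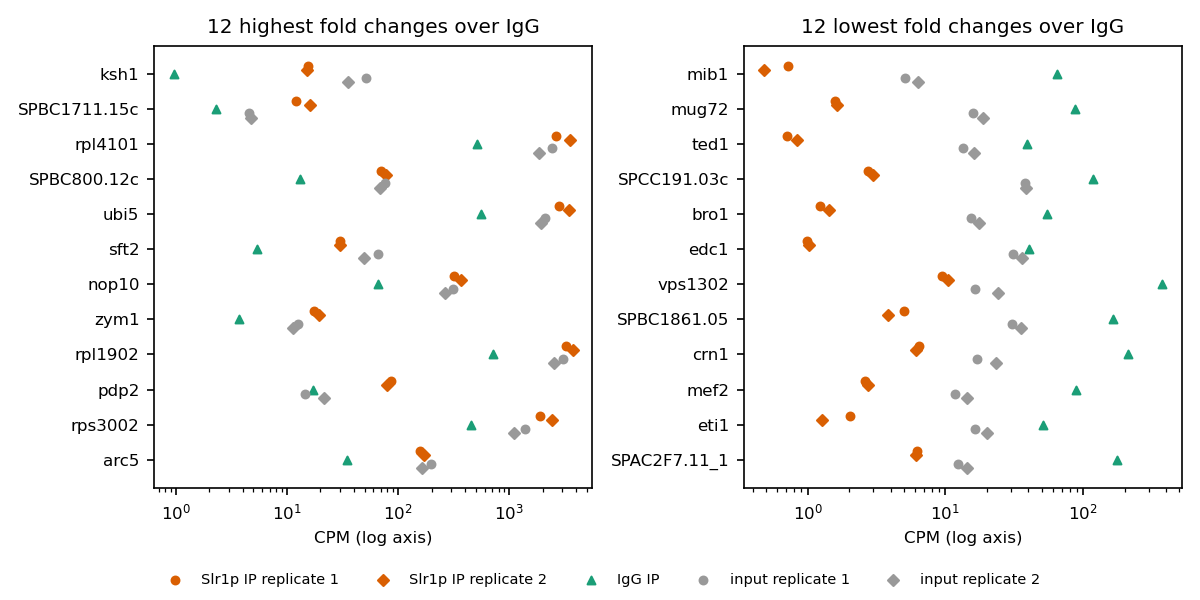
CPM on a log axis in each of the 5 libraries for the 12 genes with the highest (left) and the 12 with the lowest (right) log2 fold change of Slr1p over IgG. The Slr1p libraries lie close together throughout, and for the low genes, such as mib1 at 0.7213 and 0.4798 CPM with Slr1p, they lie below input as well as below IgG.

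All 12 of the lowest genes were below input as well as below IgG in both Slr1p libraries. The mRNA of mib1, a DNAJC11 family protein, had 45 and 28 counts with Slr1p and 863 with IgG, although the IgG library was the shallower one. In CPM these were 0.7213 and 0.4798 with Slr1p, 64.17 with IgG and 5.111 and 6.35 in input, a log2 fold change of -6.73 (edgeR, SE 0.23, adjusted p = 1.94e-13). The predicted oxidoreductase gene mug72 had 1.587 and 1.628 CPM with Slr1p, 87.07 CPM with IgG and 15.86 and 18.62 CPM in input, at -5.76. For the phosphatase gene ted1 the values were 0.7053 and 0.8397 CPM with Slr1p, 39.41 CPM with IgG and 13.34 and 16.25 CPM in input, at -5.67. The decapping gene edc1 stood at 0.9938 and 1.028 CPM with Slr1p, against 40.23 CPM with IgG and 31.12 and 35.88 CPM in input, at -5.31. In all 4 genes IgG was above input and Slr1p far below it. Overlap with other counted genes covers 61.7% of mib1 and 0.4% of mug72, and ted1 and edc1 have none.

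Genes of the vacuolar sorting protein bro1 (-5.35), the lipid transfer protein vps1302 (-5.24), the actin-binding coronin crn1 (-5.06), the mitochondrial elongation factor mef2 (-5.05) and eti1 (-4.94) followed, with adjusted p of 4.33e-12 or less in each by edgeR. For vps1302, with a transcript of 9082 nt, Slr1p gave 9.473 and 10.4 CPM, IgG 374.4 CPM and input 16.47 and 24.24 CPM. The short SPCC191.03c, with 453 nt, had 2.757 and 2.999 CPM with Slr1p, 117.4 CPM with IgG and 37.58 and 38.72 CPM in input, at -5.35. Overlap with other counted genes covers 83.0% of SPCC191.03c, which shares near-identical sequence with acs1. Such overlap covers 44.3% of crn1 and 0.8% of bro1, and vps1302, mef2 and eti1 have none. With length corrected, the 12 lowest genes that have a transcript length still lay between -6.25 and -2.66.

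In all, 108 genes, these 12 among them, were lower by at least 3 on the log2 scale, with medians of 2.48 CPM with Slr1p, 34.6 CPM with IgG and 12.2 CPM in input. In 86 of them both Slr1p libraries were below both input libraries, which held for 2203 of all 5052 genes tested. Their median transcript of 2464 nt exceeds the 1694 nt of all genes tested, but 64 of them were still at -3 or below when length-corrected. By chromosome they were 37 of 2271 genes tested on chromosome I (1.63%), 29 of 1820 on II (1.59%) and 39 of 912 on III (4.28%). This division was looked at after the values were seen and has no test. The median log2 fold change of all genes was 0.09 on I, 0.08 on II and -0.10 on III.

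Some genes went against the length pattern, and these were chosen after their values were seen. Of the 11 genes of the longest decile that were higher with Slr1p, the 8 with the largest fold change among those averaging at least 10 CPM overlap other counted genes over 40.2% to 97.3% of their annotated length. The cell cycle gene spo12 led them at 2.25 (edgeR, SE 0.24, adjusted p = 2.51e-07), with 16.91 and 18.58 CPM with Slr1p and 3.718 CPM with IgG over 3802 annotated nt. In the shortest decile, dhm1 was lower at -3.13 (SE 0.21, adjusted p = 7.62e-10), with 4.007 and 2.999 CPM with Slr1p, 30.71 CPM with IgG and 10.17 and 12.56 CPM in input, and it overlaps no other counted gene. The cytochrome oxidase assembly gene coa6, also without overlap, was lower at -1.12 (SE 0.17, edgeR adjusted p = 2.02e-05). It had 9.201 and 8.928 CPM with Slr1p, 19.7 CPM with IgG and 28.58 and 27.35 CPM in input. Among short exceptions picked the same way, overlap ran from 0.0% for dhm1, coa6 and pac2 to 95.4% for SPAC144.01 and 100.0% for SPAC688.12c.

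Finally, 46 tested genes had 0 counts in IgG, and 32 of them averaged more than the IgG floor of 0.223 CPM with Slr1p. For these only a bound can be given, and it was taken on the mean of the Slr1p libraries, so a single library can lie below it. The gene git11, for the gamma subunit of a G protein of the glucose-sensing pathway, had 164 and 139 counts with Slr1p and 0 with IgG, at least 11.2-fold higher than the level of 3 IgG counts, and 336 and 461 counts in input. The enolase gene eno102, the highest of the glycolysis list, was at least 9.24-fold higher by that mean, with 84 and 162 counts with Slr1p and 48 and 152 in input. Its Slr1p libraries stood apart, at 1.35 and 2.78 CPM, and overlap with other counted genes covers 79.2% of it. The helicase-like SPAC212.06c, the highest of its list, was at least 4.23-fold higher and has a near-identical copy in tlh1. Of the 32 genes 11 have such a copy. With such genes at their bounds, the medians were 0.05 over all genes, 0.20 over the glycolysis list and -0.94 over the helicase list. At the depth of the IgG library, 97 and 109 coding genes were at 0 with Slr1p, 124 with IgG and 101 and 102 in input.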

How the data were processed

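RNA was measured in 5 libraries of 50 bp paired reads, made with a directional NEBNext Ultra II kit, per the labels. The authors deposited raw read counts per gene, 1 file per library. The submitters' processing notes list HTSeq 0.6.1p2, STAR 2.6.0c, Trim Galore, FastQC 0.11.5 and bcl2fastq 2.20 without saying what each did. Build, strand setting and handling of reads with several matches are not given in the sources, so reads of overlapping genes and near-identical copies may have been split or lost.

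From these counts, nuclear protein-coding genes (5156) were scaled by TMM and tested with edgeR 4.0.16 (R 4.3.3, limma 3.58.1), by the quasi-likelihood test with the default filter by group (minimum count 10, which removed 104 genes) and a mean for each group of the 5 libraries. Residual degrees of freedom among libraries were 2, with 15.5 prior ones. Benjamini-Hochberg adjustment ran over the 5052 genes tested, and genes under 0.05 were called. The procedure was tested on simulated data in which every library had the same spread. That test cannot check the spread taken for the IgG library. Replicates of a pair differed beyond counting noise (chi-square per degree of freedom 55 for Slr1p and 241 for input), so none was counted as a duplicate. The labels call these biological replicates without naming separate cultures, so p-values measure the spread between these libraries.

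Lengths, names and sequences came from RefSeq ASM294v3, which may not be the build of the counts, and 5103 of 5156 identifiers matched. Of these genes 2882 overlap another counted gene, and 254 have a near-identical copy (90% identity over 100 bases). RefSeq marks 32 of the 5156 genes kept by identifier as pseudogenes. Genes named are the 12 highest and 12 lowest called genes of at least 10 CPM with both Slr1p libraries on 1 side of IgG, the highest, lowest and most abundant member of each list, and slr1. Most abundant means the highest mean CPM over the Slr1p and IgG libraries, without input. The genes sla1 and git11 were named outside this rule, and other exceptions are marked in the text. The members and lists were chosen with earlier results of these data known, and list patterns were adapted to the annotation's wording. Lists are described by counts and medians with no test of the list. DESeq2 1.42.0, other scalings and filters, libraries left out, a replicate block, thinning to the IgG depth and a length and GC correction (loess span 0.5) were the alternatives.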

Additional observations from a re-analysis of the deposited data

Results flagged for a closer look

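The comparison left out noncoding and mitochondrially encoded genes. With all genes in the fit, 431 of the 1330 such genes tested (32.4%) were higher with Slr1p than with IgG, and 262 (19.7%) were lower, against 36.2% and 34.9% of the coding genes in the fit of coding genes alone. These counts are given because the comparison of coding genes does not use such genes. Both shares lay below those of the coding genes. Overlap with coding genes was not tested for them.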

How the results depend on the processing

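Under the other scalings, the filter, left-out libraries, the replicate block, thinning to the IgG depth and DESeq2, 0 of the genes called changed sides, but the counts moved. With library totals 1153 genes were higher and 1891 lower, and 571 were higher by at least 1 on the log2 scale. With length and GC trends removed 1535 were higher and 1045 lower, of which 353 and 490 by at least 1. That correction turned the direction of 7 named genes that had been called: rpn2 (0.13), vph1 (0.11), tef3 (0.30), pma1 (0.84), myo1 (0.10), tel1 (0.45) and nup189 (0.11). Among named genes not called before it, ght8 (0.52) was then called higher and rsm24 (-0.40) lower, against their earlier signs. Those changes follow from the correction itself, which subtracts the trend with length. Leaving out 1 library at a time gave 1441 to 2084 genes higher and 1392 to 2014 lower. Without a Slr1p library the lone one left was assumed to vary like input, and 7 (without replicate 1) and 9 (without replicate 2) of the named calls were lost, among them tef3, pma1, htb1, vph1, ssl3 and ecm33 in both. The 3 compared libraries alone gave 2041 and 2020 calls, and DESeq2 gave 1741 and 1759.

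The replicate numbers of Slr1p and input were not tied by the labels, and the deviations of same-numbered libraries had a correlation of -0.166. A replicate block gave 1733 genes higher and 1690 lower, and 5 of the named calls were lost with it. With the input numbers crossed, a pairing chosen after seeing the data, it gave 1909 and 1826. The single IgG library, at 11934185 counts, limits every value here: its low counts set the precision of genes that are high with Slr1p, and no second control library was analysed here.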
